A study of Mus musculus with 4 samples.

Results

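The BCL2 family is described here through 10 of the 51905 genes in the deposited tables, each taken by its symbol: Bcl2, Bcl2l1 and Mcl1, which oppose apoptosis, Bax and Bak1, which carry it out, and Bcl2l11, Bbc3, Pmaip1, Bid and Bad, which set it off. Each symbol matched 1 row. Of the 10 genes, 9 had a mean of at least 10 counts over the libraries and were among the 14013 genes tested. Pmaip1 was listed at 0 in every library.

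The RNA came from CT26 and MC38, mouse colorectal cancer cell lines labelled as colon tissue and wild type (WT). Each line was infected with a lentivirus carrying lenti-shmaurka-1, a single short hairpin RNA against Aurora-A (the mitotic kinase encoded by Aurka), or with lenti-shGFP as the control, so that all 4 groups carried a lentiviral hairpin. Cells were selected with puromycin, passaged, and harvested 48 h after seeding. There was 1 library per group and no replicate. The knockdown pools were not single clones. The lines were grown in different media, CT26 in RPMI-1640 and MC38 in DMEM. The paper injected each line into mice of a matching strain, which was BALB/c for CT26 and a different strain for MC38. A difference between lines therefore cannot be told apart from a difference in medium or in mouse strain. Whether reads of both lines aligned equally well to the reference was not tested. In RNA from whole cultures, fewer cells with a transcript and less of it per cell cannot be told apart either.

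Depth was nearly even, with 22207768 to 23752269 fragments per library, a ratio of 1.07. Aurka, the targeted gene, gave 5724 fragments in CT26 shGFP, 1093 in CT26 shmaurka-1, 2300 in MC38 shGFP and 413 in MC38 shmaurka-1, a log2 fold of -2.27 in CT26 and -2.44 in MC38, in the direction of the labels. CT26 is labelled a fibroblast and MC38 an epithelial cell. Summed over 9 mesenchymal markers, the level was 1869 and 1849 FPKM in CT26 shGFP and shmaurka-1 and 602 and 635 FPKM in MC38. Of the 9, 6 were higher in CT26 in both treatments and 1, Col3a1, in MC38. S100a4 was the largest part of the CT26 sum, at 951 and 921 FPKM, against 36.8 and 60.1 FPKM in MC38. Summed over 9 epithelial markers it was 43.0 and 42.7 FPKM in CT26 and 1.29 and 0.964 FPKM in MC38. Krt18 (33.7 and 37.4 FPKM) and Krt20 (8.45 and 4.41 FPKM) made up nearly all of the CT26 sum, while Vil1 was listed at 0 in CT26 and gave 38 and 29 fragments in MC38. Epcam and Cldn7 had no more than 3 fragments in any library, so the marker levels did not bear out the epithelial label of MC38. Leukocyte markers summed to between 4.63 and 8.10 FPKM, made up mostly of Cd68 (79 to 145 fragments) and Lyz2 (31 to 98), with Ptprc and Cd3e at 3 fragments or fewer in each library, and endothelial markers to between 0.466 and 1.66 FPKM.

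Proteins of the BCL2 family decide whether the outer membrane of the mitochondrion is breached, which releases cytochrome c and starts the caspases. BAX and BAK form the pores, BCL2, BCL-XL (from Bcl2l1) and MCL1 hold them in check by binding them and their activators, and the BH3-only proteins, such as BIM (from Bcl2l11), PUMA (from Bbc3), NOXA (from Pmaip1), BID and BAD, activate the pore formers or occupy the inhibitors. Much of this control acts on the proteins, through binding, cleavage, phosphorylation and turnover, which transcript levels do not show.

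The promoters of 6 members are given first: Bbc3, Mcl1, Bcl2l1 and Bax, which were more than 2-fold higher in CT26 in both treatments, Bcl2l11, the member with the largest difference toward MC38, and Bak1, the effector to set beside Bax. Each is the 250 bases before a RefSeq start site of GRCm38.p6, 5′ to 3′ on the gene's strand, from the reference strain and not read from these lines. Where a gene has several start sites, the most upstream one in the table was used. The RefSeq records of Bbc3, Mcl1, Bcl2l1 and Bid reach further upstream than that site, and that of Bax by a few bases, so these windows lie wholly or in part within the record. Capitals mark a match to a motif searched for on both strands, named after the sequences.
Bbc3 promoter (chr7:16309333-16309582, plus strand): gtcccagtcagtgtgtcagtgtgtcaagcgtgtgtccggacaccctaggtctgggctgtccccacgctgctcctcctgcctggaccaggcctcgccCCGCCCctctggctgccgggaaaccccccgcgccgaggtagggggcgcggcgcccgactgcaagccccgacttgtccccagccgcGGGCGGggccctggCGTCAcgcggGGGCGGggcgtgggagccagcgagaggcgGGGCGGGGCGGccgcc
Mcl1 promoter (chr3:95658471-95658720, plus strand): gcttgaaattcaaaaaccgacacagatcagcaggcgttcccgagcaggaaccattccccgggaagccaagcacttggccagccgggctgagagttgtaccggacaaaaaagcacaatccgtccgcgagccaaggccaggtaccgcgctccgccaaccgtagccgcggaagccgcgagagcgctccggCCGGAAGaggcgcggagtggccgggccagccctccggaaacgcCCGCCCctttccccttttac
Bcl2l1 promoter (chr2:152831729-152831978, minus strand): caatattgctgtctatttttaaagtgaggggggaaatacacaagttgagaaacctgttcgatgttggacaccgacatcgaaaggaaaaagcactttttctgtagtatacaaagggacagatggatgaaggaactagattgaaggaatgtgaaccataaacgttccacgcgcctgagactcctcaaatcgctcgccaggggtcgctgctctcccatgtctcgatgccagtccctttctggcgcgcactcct
Bax promoter (chr7:45466899-45467148, minus strand): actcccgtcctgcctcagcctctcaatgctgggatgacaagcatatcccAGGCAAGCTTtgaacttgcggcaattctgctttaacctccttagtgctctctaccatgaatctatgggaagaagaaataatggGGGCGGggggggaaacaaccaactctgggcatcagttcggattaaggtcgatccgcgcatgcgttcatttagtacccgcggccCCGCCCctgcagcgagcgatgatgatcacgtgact
Bcl2l11 promoter (chr2:128125788-128126037, plus strand): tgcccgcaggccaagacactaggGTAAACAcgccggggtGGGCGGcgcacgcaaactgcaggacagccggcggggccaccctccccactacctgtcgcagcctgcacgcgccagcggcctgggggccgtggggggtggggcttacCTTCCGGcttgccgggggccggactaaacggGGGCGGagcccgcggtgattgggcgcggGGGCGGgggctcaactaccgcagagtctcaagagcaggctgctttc
Bak1 promoter (chr17:27028628-27028877, minus strand): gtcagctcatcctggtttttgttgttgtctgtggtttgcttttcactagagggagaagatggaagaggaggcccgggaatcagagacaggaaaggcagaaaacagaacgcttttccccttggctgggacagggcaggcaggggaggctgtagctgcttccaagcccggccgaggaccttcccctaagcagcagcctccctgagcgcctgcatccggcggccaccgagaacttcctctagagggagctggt

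The motifs were the GC box GGGCGG, the cyclic AMP response half-site TGACG, the TATA box TATAAA, a forkhead (FOXO) motif TGTTTAC, the STAT motif TTCNNNGAA, the ETS motif CCGGAAG and the p53 half-site consensus. Of the 10 members, 9 had a promoter in the table. A GC box stood in 7 of these 9, against 33.0% of all 27025 promoters of the same length, and Bcl2l1 and Bak1, whose sequences carry no capitals, were the members without one. The capitals of Bbc3 are 5 GC boxes, of which the last pair overlap by 1 base, and a TGACG match 55 to 51 bases before the start, and TGACG was also found for Bcl2, against 17.8% of all promoters. The first capitals of Bax are a p53 half-site match 201 to 192 bases before the start, the only one among the members, against 7.16% of all promoters. Mcl1 held an ETS match and a GC box, and Bcl2l11 a forkhead match, an ETS match and 3 GC boxes, where the background was 7.07% for ETS and 3.06% for the forkhead motif. No member promoter held TATAAA, which 13.0% of all promoters held, or the STAT motif, which 7.14% held. The G and C content ran from 47.6% for Bcl2l1 to 76.4% for Bbc3, with a median of 52.0% over all promoters. A match is a description of the letters in this window only.

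The first comparison was of the members' levels within a library, given as FPKM, fragments relative to transcript length and to library size, which can be set side by side between genes. In CT26 shGFP the order was Mcl1, Bax, Bcl2l1, Bak1, Bid, Bbc3, Bad, Bcl2l11 and Bcl2, and in CT26 shmaurka-1 Bax stood before Mcl1. In both MC38 libraries the order opened with Bak1, Bax and Mcl1 and closed with Bad, Bcl2l11, Bbc3 and Bcl2. Bak1 thus headed the order in MC38 but stood behind Mcl1, Bax and Bcl2l1 in CT26, and Bbc3 stood above Bad and Bcl2l11 in CT26 and below them in MC38. Neighbours whose pair of values overlapped within a line were Mcl1 with Bax and Bid with Bbc3 in CT26, and Bcl2l1 with Bid in MC38. The other neighbours did not overlap, which with a control and a knockdown library per line is a description and no test.

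**Figure D1:**
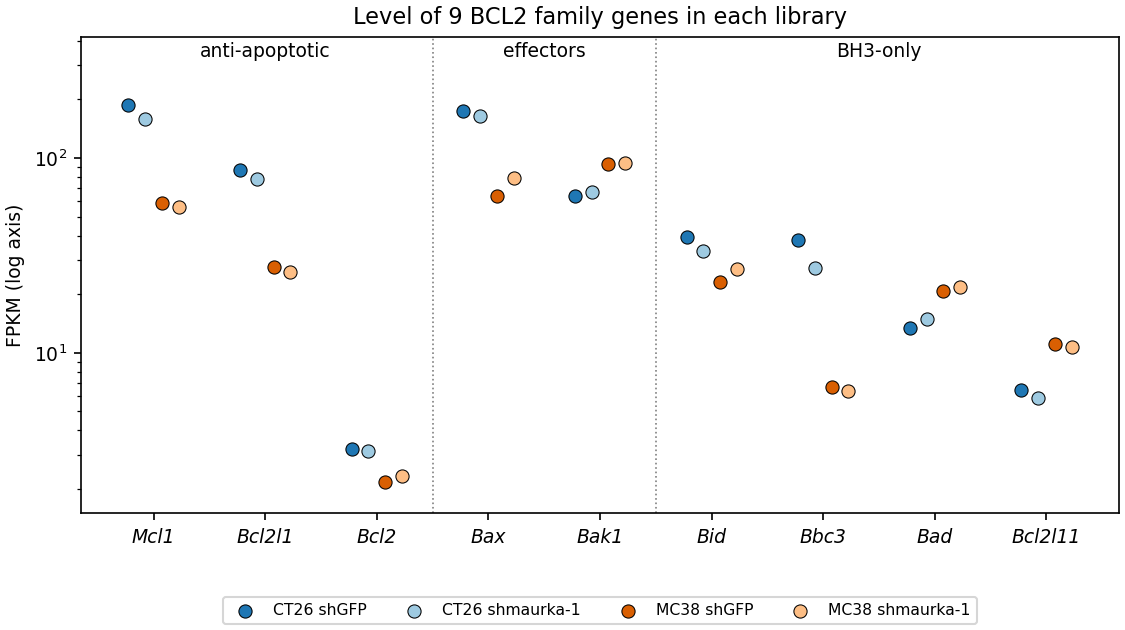
Level in FPKM (vertical log axis) of the 9 detected BCL2 family genes (horizontal axis, grouped by role) in the 4 libraries, 1 point a library and so without error bars. Mcl1, Bcl2l1, Bcl2, Bax, Bid and Bbc3 lie higher in both CT26 libraries, and Bak1, Bad and Bcl2l11 in both MC38 libraries.

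Mcl1, the short-lived inhibitor that many cells need to survive, was the most abundant of the anti-apoptotic transcripts in each library. It lies on chromosome 3 (chr3:95656944-95663179, RefSeq, GRCm38). It stood at 187 FPKM in CT26 shGFP, 158 in CT26 shmaurka-1, 58.5 in MC38 shGFP and 56.4 in MC38 shmaurka-1, from 10560, 7886, 4001 and 3774 fragments. Both CT26 libraries were far above both MC38 libraries. In edgeR's quasi-likelihood test with treatment in the model, Mcl1 was 2.96-fold higher in CT26 (log2 MC38 over CT26 -1.56 ± 0.10 SE, Benjamini-Hochberg adjusted p = 6.82e-58).

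Bcl2l1, which encodes BCL-XL, followed the same pattern at a lower level. It lies at chr2:152758732-152833803. It stood at 86.6 FPKM in CT26 shGFP, 78.2 in CT26 shmaurka-1, 27.5 in MC38 shGFP and 26.1 in MC38 shmaurka-1, from 4051, 3317, 1663 and 1587 fragments. The CT26 and MC38 libraries did not overlap, and the line difference was 2.84-fold (log2 -1.51 ± 0.10 SE, edgeR adjusted p = 4.86e-46).

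Bcl2, the founding member of the family (chr1:106538176-106714290), was the lowest of the 9 detected members in all 4 libraries. It stood at 3.20 FPKM in CT26 shGFP, 3.14 in CT26 shmaurka-1, 2.16 in MC38 shGFP and 2.34 in MC38 shmaurka-1, from 459, 399, 356 and 391 fragments. The line difference was 1.44-fold (log2 -0.53 ± 0.15 SE, edgeR adjusted p = 0.000945), and it was not called when libraries were scaled by their total counts (log2 -0.19) or with DESeq2 (log2 -0.53). Total-count scaling moved the median of all genes by 0.34 log2 between the shGFP libraries and 0.33 between the shmaurka-1 libraries, toward MC38. In the files Bcl2 shares its locus with 3 other genes, of which Mir3473f and Gm37053 overlap it.

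The 3 anti-apoptotic transcripts summed to 277 FPKM in CT26 shGFP, 239 in CT26 shmaurka-1, 88.2 in MC38 shGFP and 84.8 in MC38 shmaurka-1. Mcl1 made up 67.5%, 66.0%, 66.3% and 66.5% of this sum in the same order, and Bcl2 between 1.16% and 2.76%. The division between Mcl1 and Bcl2l1 was therefore nearly the same in libraries whose sums differed about as much as the single genes did. Bcl2l2, which encodes the inhibitor BCL-W, was left out of the sum, at 15.8, 16.2, 14.9 and 13.5 FPKM in the same order. The shares are thus those among the 3 members.

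Bax encodes a pore former that waits in the cytosol, and it was the more abundant effector in CT26 only. It lies at chr7:45461695-45466903. It stood at 175 FPKM in CT26 shGFP, 165 in CT26 shmaurka-1, 64.0 in MC38 shGFP and 78.8 in MC38 shmaurka-1, from 3481, 2887, 1555 and 1849 fragments. The lines did not overlap, and Bax was 2.35-fold higher in CT26 (log2 -1.23 ± 0.10 SE, edgeR adjusted p = 3.76e-31). Its file locus spans 6 other genes, none of which overlaps the RefSeq gene.

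Bak1 encodes the pore former that sits in the mitochondrial membrane, and it differed in the other direction. It lies at chr17:27019812-27028627. It stood at 63.9 FPKM in CT26 shGFP, 67.2 in CT26 shmaurka-1, 92.8 in MC38 shGFP and 94.3 in MC38 shmaurka-1, from 2775, 2442, 5047 and 5003 fragments. Both MC38 libraries were above both CT26 libraries, and Bak1 was 1.53-fold higher in MC38 (log2 0.62 ± 0.10 SE, edgeR adjusted p = 1.13e-09). Bak1 overlaps Ggnbp1. The paper names a strand-specific library kit. How the authors' counting treated strand is not given in the sources used here, so some fragments could belong to either gene.

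The ratio of Bax to Bak1 was accordingly 2.75 in CT26 shGFP, 2.46 in CT26 shmaurka-1, 0.689 in MC38 shGFP and 0.836 in MC38 shmaurka-1. Bax was the larger part of the effector transcripts in CT26 and Bak1 in MC38, whichever hairpin the cells carried. The effector sum was 239, 233, 157 and 173 FPKM, so it differed less between lines than the anti-apoptotic sum did. Anti-apoptotic over effector FPKM was 1.16 in CT26 shGFP, 1.03 in CT26 shmaurka-1, 0.562 in MC38 shGFP and 0.490 in MC38 shmaurka-1. Ratios within a library do not depend on the scaling between libraries.

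Bbc3 encodes PUMA, a BH3-only protein that binds all the anti-apoptotic members and is a classic target of p53, and it showed the widest difference between the lines of the 9 members. It lies at chr7:16308398-16318334, and its promoter is the first sequence above. It stood at 38.0 FPKM in CT26 shGFP, 27.1 in CT26 shmaurka-1, 6.65 in MC38 shGFP and 6.38 in MC38 shmaurka-1, from 1842, 1219, 346 and 340 fragments. The lines were far apart, and Bbc3 was 5.51-fold higher in CT26 (log2 -2.46 ± 0.13 SE, edgeR adjusted p = 2.14e-74). The MC38 libraries were near each other while the CT26 knockdown library was below its control.

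Bid links the death receptors to the mitochondrion once caspase-8 has cleaved it, and it was the most abundant of the BH3-only members in each library. It lies at chr6:120893119-120917062. It stood at 39.5 FPKM in CT26 shGFP, 33.2 in CT26 shmaurka-1, 23.1 in MC38 shGFP and 26.9 in MC38 shmaurka-1, from 1940, 1471, 1353 and 1539 fragments. The lines did not overlap in FPKM, and the difference was 1.47-fold (log2 -0.56 ± 0.11 SE, edgeR adjusted p = 9.22e-07). With total-count scaling it was not called (log2 -0.22), and among the shmaurka-1 libraries it then stood at 0.03, the other side of no change. Bid shares its file locus with Bcl2l13, another gene of the family, and overlaps Gm17812.

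Bad, whose protein is held inactive by phosphorylation under growth factor signalling, was higher in MC38. It lies at chr19:6941861-6951905. It stood at 13.4 FPKM in CT26 shGFP, 14.9 in CT26 shmaurka-1, 20.7 in MC38 shGFP and 21.9 in MC38 shmaurka-1, from 334, 310, 631 and 641 fragments. The lines did not overlap, with a difference of 1.57-fold (log2 0.65 ± 0.15 SE, edgeR adjusted p = 2.38e-05). Bad overlaps Gpr137 in the annotation.

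Bcl2l11 encodes BIM, another BH3-only protein that engages the full range of inhibitors, and it too was higher in MC38. It lies at chr2:128126038-128162547. It stood at 6.44 FPKM in CT26 shGFP, 5.86 in CT26 shmaurka-1, 11.0 in MC38 shGFP and 10.6 in MC38 shmaurka-1, from 424, 373, 897 and 812 fragments. The lines did not overlap, with a difference of 1.71-fold (log2 0.77 ± 0.14 SE, edgeR adjusted p = 8.47e-08).

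Pmaip1, which encodes NOXA, was listed at 0 in all 4 libraries, and the files do not tell a gene without reads from an estimate that failed. A listed 0 also occurred in genes that every cell uses. Rpl13, a ribosomal protein gene, was listed at 0 in both CT26 libraries and gave 29415 and 32879 fragments in MC38. In all, 37 genes were at 0 in both CT26 libraries with at least 1000 fragments in each MC38 library, 32 of them on chromosome 8, which holds no member, and 1 gene was the reverse. Without these genes the line effect still called 76.0% of the rest. No fold or limit is given for Pmaip1.

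Within the BH3-only sum of 97.3, 81.1, 61.5 and 65.8 FPKM, Bbc3 held 39.0% in CT26 shGFP, 33.4% in CT26 shmaurka-1, 10.8% in MC38 shGFP and 9.69% in MC38 shmaurka-1. Bid held between 37.6% and 40.9% in all 4 libraries. Bad held 33.6% and 33.2% in MC38 against 13.8% and 18.4% in CT26, and Bcl2l11 17.9% and 16.2% against 6.62% and 7.23%. Bbc3 thus had the smallest share of the 4 in MC38 and one of the largest in CT26.

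**Figure D2:**
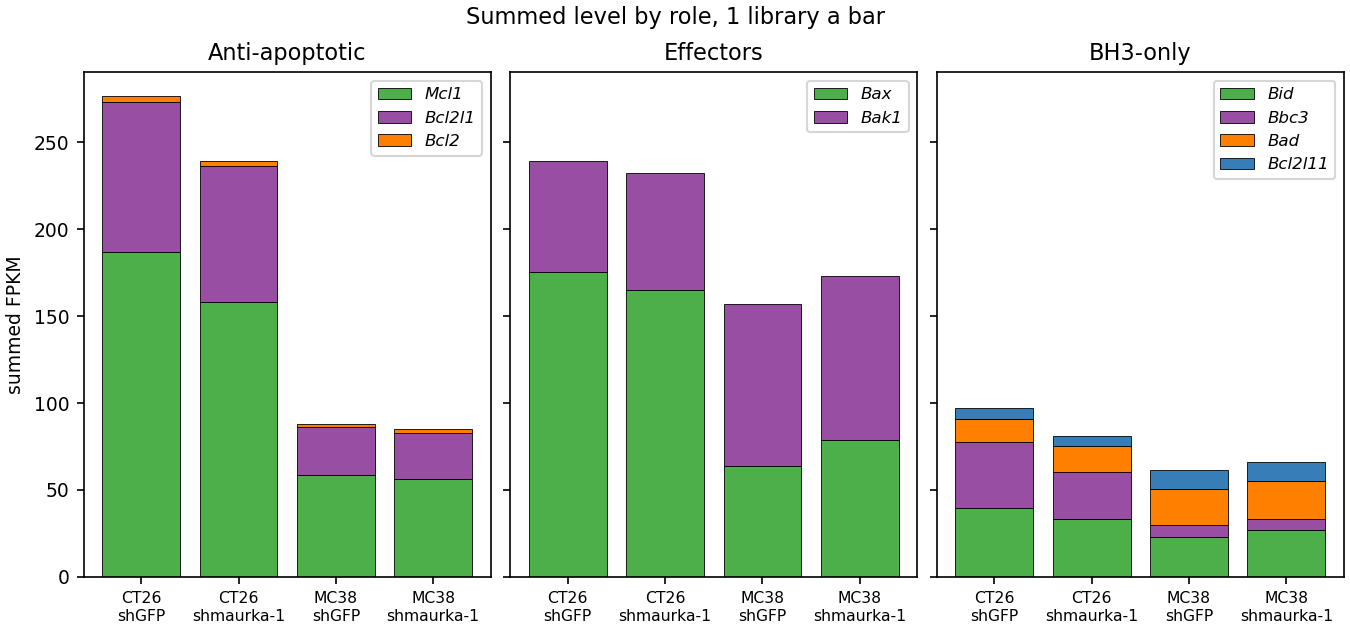
Summed FPKM (vertical axis) of the anti-apoptotic, effector and BH3-only transcripts in each of the 4 libraries (horizontal axis), with colours for the members and no error bars, as a bar is 1 library. Mcl1 fills about the same part of the anti-apoptotic bars throughout, while Bax gives way to Bak1 and Bbc3 to Bad and Bcl2l11 from CT26 to MC38.

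The line comparison as a whole asked how the family differs between the lines with the treatment held fixed. All 9 members tested were called in the line effect by edgeR, 6 higher in CT26 and 3 higher in MC38, where 76.0% of the 14013 genes were called, 36.4% higher in CT26 and 39.6% higher in MC38. Of all genes called, 52.1% were higher in MC38, and 66.5% with total-count scaling. The median absolute line effect was 0.77 log2 for the members and 0.81 for all genes, so in size the members were near the background. With 1 residual degree of freedom, the test took its spread from all genes together. The control and knockdown libraries of a line stood in for its replicates and share their parental culture. The p-values therefore measure only the spread between these libraries, not that between independent cultures of a line.

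Within each treatment, a member was counted as differing when it was past a fold of 2 or 0.5. Among the shGFP libraries 4 of 9 members passed, all higher in CT26, where 42.3% of genes passed, 17.8% higher in CT26 and 24.5% in MC38. Among the shmaurka-1 libraries the count was again 4 of 9, against 42.5% of genes, 17.3% and 25.2% in the 2 directions. The 4 were Mcl1, Bcl2l1, Bax and Bbc3 in both treatments, where 15.1% of genes passed in that direction in both, 22.3% in the other and 37.4% in all. The counting interval left out no change for all 9 members in both treatments, where it did so for 84.1% of genes among the shGFP and 84.0% among the shmaurka-1 libraries. Bax was just inside the limit among the shmaurka-1 libraries, at a fold of 0.495, and with total-count scaling it was outside, at a log2 of -0.68. Just outside were Bid among the shGFP libraries, at 0.570, though not among the shmaurka-1 libraries, at 0.808, and on the MC38 side Bcl2l11, at 1.73 and 1.68, Bad, at 1.54 and 1.60, and Bak1, at 1.49 and 1.58. With total-count scaling, 1 member was more than 2-fold higher in MC38 among the shGFP and 2 among the shmaurka-1 libraries, in place of 0 and 0, where 31.2% and 31.8% of all genes then were. More than 2-fold higher in CT26 were then 4 members among the shGFP and 3 among the shmaurka-1 libraries, beside 12.5% and 12.4% of all genes.

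**Figure D3:**
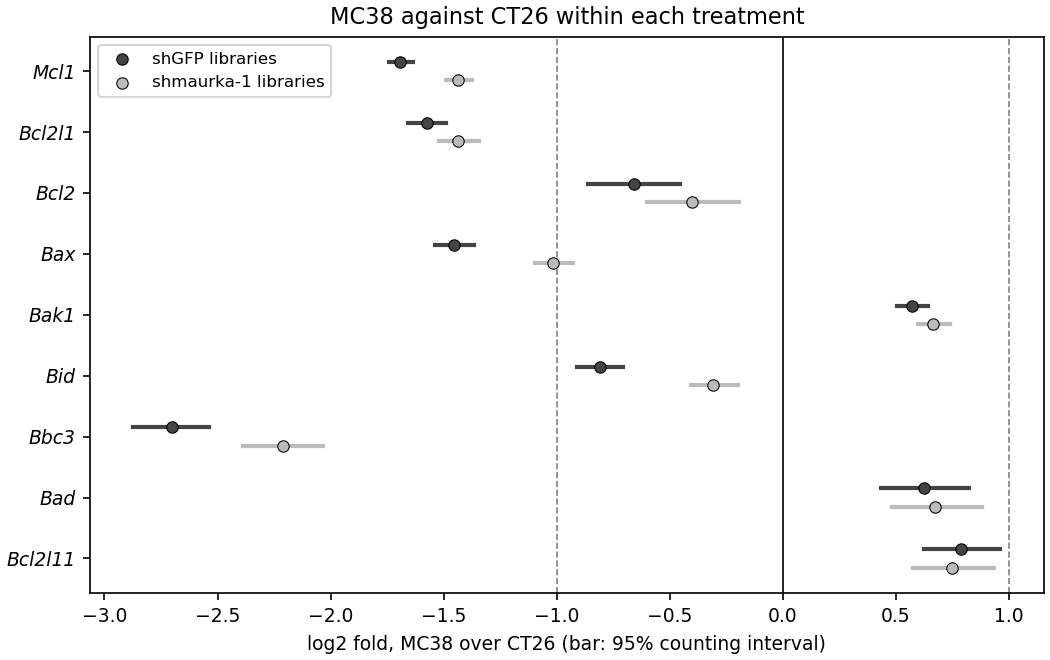
Log2 fold of MC38 over CT26 (horizontal axis) for the 9 detected members (vertical axis), in the shGFP libraries (dark) and the shmaurka-1 libraries (light). Bars are 95% counting intervals and dashed lines mark folds of 0.5 and 2. Mcl1, Bcl2l1, Bax and Bbc3 lie left of the 0.5 line in both treatments.

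The knockdown comparison asked whether the family responded to the loss of Aurora-A within each line. In CT26, 0 of 9 members were past the study's fold thresholds of 1.5 and 0.6, where 10.4% of genes were, 5.19% above and 5.18% below. In MC38 it was again 0 of 9, where 6.49% of genes were past them, 4.06% above and 2.43% below. Past the same threshold in both lines were 0.692% of genes above and 0.385% below, and no member. The members' log2 folds ran from -0.48 to 0.01 in CT26, with a median of -0.16 beside -0.01 for all genes, and from -0.11 to 0.28 in MC38, with a median of 0.02 beside 0.00. In CT26, 8 of 9 members were below 0 (Bad was above, at 0.01, but at -0.01 with total-count scaling, and Bak1 at 0.07 with FPKM), as were 51.3% of all genes, and in MC38 3 of 9 were, beside 49.6%. With 1 library per group there is no test within a line, and the intervals below cover counting error only.

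In CT26, Bbc3 had the widest fold of the members, from 86.8 CPM (TMM-scaled counts relative to library size) in the control to 62.1 CPM in the knockdown library. Its fold was 0.716 (log2 -0.48, 95% counting interval -0.59 to -0.38), and 16.7% of all genes had a log2 fold at least as large in size. Mcl1 was next, at 497 and 402 CPM, with a log2 fold of -0.31 (-0.35 to -0.27). Bid stood at 91.4 and 75.0 CPM, with a log2 fold of -0.29 (-0.39 to -0.19). These were the members with the lowest knockdown values relative to control, and none of them was past the 0.6 threshold.

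For Bcl2l1 the log2 fold in CT26 was -0.17 (-0.24 to -0.11), and for Bax -0.16 (-0.23 to -0.09). The counting interval left out no change for 5 of 9 members in CT26, namely Bbc3, Mcl1, Bid, Bcl2l1 and Bax, where it did so for 38.1% of all genes. For Bcl2 (-0.09), Bak1 (-0.07), Bcl2l11 (-0.07) and Bad (0.01) it held no change, and Bak1 in FPKM was higher in the knockdown library.

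In MC38 the counting interval left out no change for 2 of 9 members, beside 41.5% of all genes. Bax stood at 59.9 CPM in the control and 72.8 in the knockdown library, a log2 fold of 0.28 (0.18 to 0.38). Bid stood at 52.1 and 60.6 CPM, a log2 fold of 0.22 (0.11 to 0.33). Both were above the control in MC38 and below it in CT26.

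For the other 7 members in MC38 the log2 fold was 0.17 for Bcl2, 0.06 for Bad, 0.02 for Bak1, 0.01 for Bbc3, -0.03 for Bcl2l1, -0.05 for Mcl1 and -0.11 for Bcl2l11. Bbc3, the member with the widest fold in CT26, had an interval of -0.21 to 0.23 in MC38, from 346 and 340 fragments. With total-count scaling Bak1 and Bbc3 stood at -0.01 and -0.02 in MC38, so the sign of these small values rests on the scaling. Bbc3 was also below 0 in MC38 with DESeq2 size factors and with FPKM.

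**Figure D4:**
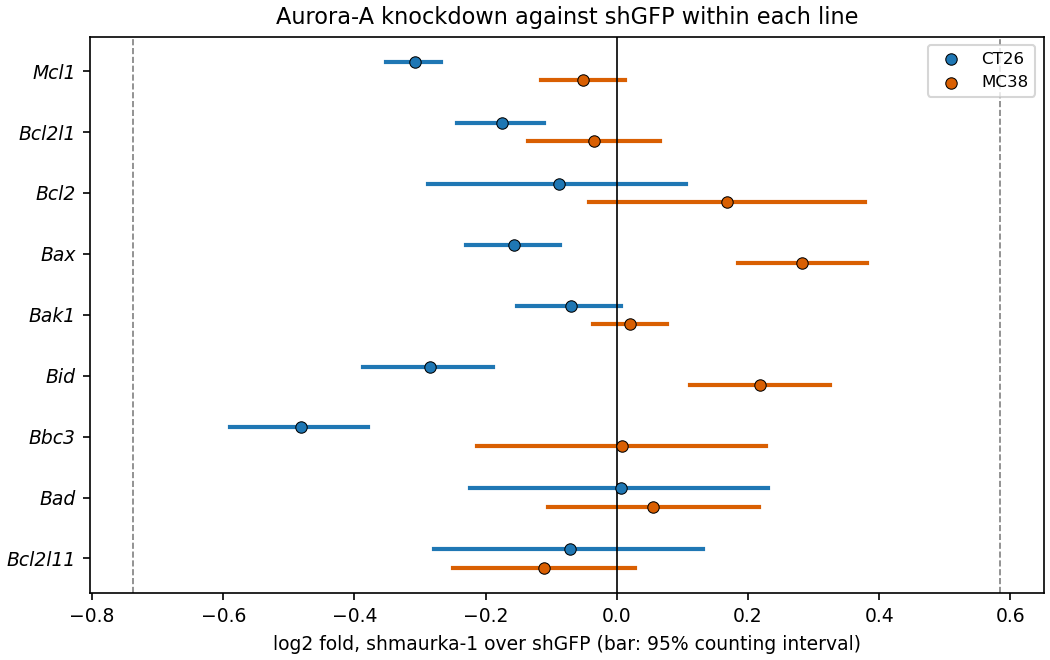
Log2 fold of shmaurka-1 over shGFP (horizontal axis) for the 9 detected members (vertical axis) in CT26 (blue) and MC38 (orange). Bars are 95% counting intervals and dashed lines mark folds of 0.6 and 1.5. No point reaches a dashed line, and Bbc3 at -0.48 in CT26 lies closest to the lower one.

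The knockdown effect common to both lines was tested in edgeR with the line in the model. It called 0 of 9 members, where 2.38% of genes were called, 1.38% higher and 0.999% lower. At an unadjusted p under 0.05 it gave 1 of 9, Bbc3, where 11.2% of genes passed. Bbc3 had a common log2 effect of -0.27 ± 0.13 SE (edgeR adjusted p = 0.373). Over the alternative settings its adjusted p lay between 0.310 and 1.00. Mcl1 had a common log2 effect of -0.18 ± 0.09 SE (edgeR adjusted p = 0.459). For the other 7 members the common effect lay between -0.11 and 0.06. DESeq2 and limma-voom also called 0 members, beside only 0.350% and 0.971% of all genes. Aurka, by contrast, had a common effect of -2.35 ± 0.11 SE (edgeR adjusted p = 3.70e-94).

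**Figure D5:**
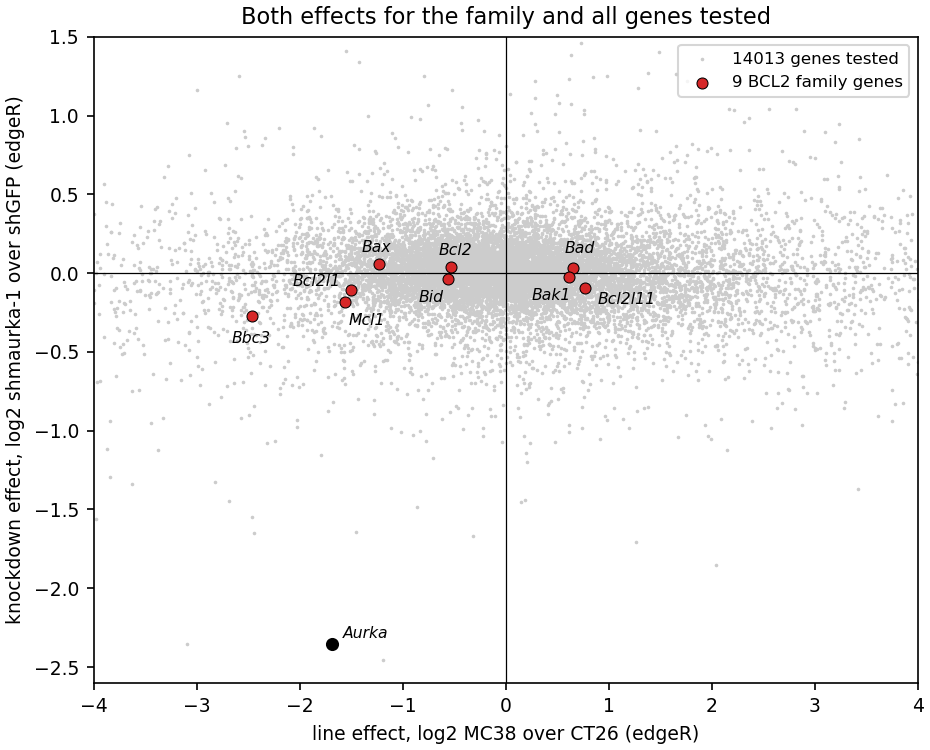
Knockdown effect (vertical axis, log2 shmaurka-1 over shGFP) against line effect (horizontal axis, log2 MC38 over CT26) from edgeR, for the 14013 genes tested (grey), the 9 detected members (red) and Aurka (black), with 1571 genes beyond the axes. The members spread from -2.46 to 0.77 along the line effect and stay between -0.27 and 0.06 along the knockdown effect.

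The genes around the family were taken from 4 lists: other BCL2 relatives, the route downstream of the mitochondrion, the death receptor route that leads to Bid, and regulators of the members. Among other relatives, 8 of 15 were tested, 0 were called in the knockdown effect, and in the line effect 5 were higher in MC38 and 2 in CT26, beside 39.6% and 36.4% of all genes, with a median of 0.70 log2 beside 0.04 for all genes. Bmf, a BH3-only gene, gave 22 and 15 fragments in the CT26 control and knockdown and 312 and 378 in MC38, 14.7-fold higher in MC38 (log2 3.88 ± 0.27 SE, edgeR adjusted p = 1.97e-46). Bcl2l15 gave 80 and 39 fragments in CT26 and was listed at 0 and 1 in MC38, so no fold is given. Bmf and Bcl2l15 were the relatives that differed most between the lines.

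The other relatives called were Bnip3 (2.48-fold), Bok (1.97-fold), Bcl2l12 (1.79-fold) and Bnip3l (1.46-fold), higher in MC38, and Bcl2l13 (1.70-fold), higher in CT26, by edgeR's line effect. Bcl2l2, which encodes the inhibitor BCL-W, was not called (log2 -0.14 ± 0.12 SE). The Bcl2a1 genes, Bik and Hrk were under the count filter, with no more than 1 fragment in a library.

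Downstream of the mitochondrion, 18 of 19 genes were tested, and in the line effect 10 were higher in MC38 and 3 in CT26, beside 39.6% and 36.4% of all genes, with a median of 0.36 log2 beside 0.04. With total-count scaling the counts were 12 and 2, beside 51.0% and 25.7% of all genes. Dffb encodes the nuclease that cuts DNA between nucleosomes during apoptosis. It gave 100 and 43 fragments in CT26 and 4367 and 3120 in MC38, 43.0-fold higher in MC38. It was also the only gene of the list called in the knockdown effect, lower by a common log2 of -0.61 ± 0.13 SE (edgeR adjusted p = 0.000507), with -1.09 in CT26 and -0.45 in MC38. DESeq2, limma-voom and the fit without the line did not call it. Casp9, the caspase that the apoptosome activates, was 3.12-fold higher in MC38, and Casp6, Htra2 and Birc2 were 2.08-fold, 1.82-fold and 1.75-fold higher there. Cycs, which encodes cytochrome c, was 1.71-fold higher in CT26, and Vdac2, a channel of the outer membrane, 1.68-fold.

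On the death receptor route all 8 genes were tested, 0 were called in the knockdown effect, and in the line effect 6 were higher in CT26 and 1 in MC38, beside 36.4% and 39.6% of all genes, with a median of -0.59 log2 beside 0.04. With total-count scaling 3 were higher in CT26, beside 25.7% of all genes. Cflar encodes FLIP, which keeps caspase-8 from acting at the receptor. It gave 9949 and 9374 fragments in CT26 and 979 and 1011 in MC38, 12.2-fold higher in CT26 (log2 -3.61 ± 0.11 SE). Casp8, whose product cleaves BID, was the gene higher in MC38, by 1.52-fold. Fas (2.44-fold), Tnfrsf1a (1.65-fold), Tradd (1.57-fold), Ripk1 (1.45-fold) and Tnfrsf10b (1.31-fold) were higher in CT26, of which Tradd, Ripk1 and Tnfrsf10b were not called with total-count scaling.

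Of 22 regulators of the members 20 were tested, and in the line effect 11 were higher in CT26 and 4 in MC38, beside 36.4% and 39.6% of all genes, with a median of -0.34 log2 beside 0.04. With total-count scaling 9 were higher in CT26 and 7 in MC38, beside 25.7% and 51.0% of all genes. The widest differences were those of Cdkn1a, an inhibitor of the cell cycle, and Mdm2, which drives the degradation of p53. Cdkn1a gave 15510 and 12487 fragments in CT26 and 1017 and 796 in MC38, 19.5-fold higher in CT26, and Mdm2 gave 9890 and 7303 against 1297 and 1059, 9.13-fold higher. Trp53 itself was not called, with 3460 and 3595 fragments in CT26, 4883 and 5079 in MC38 and a line effect of 0.17 ± 0.10 SE (edgeR adjusted p = 0.111), but with total-count scaling it was called higher in MC38, at 0.51 (edgeR adjusted p = 4.85e-07).

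Further regulators higher in CT26 were Pim3, a kinase that phosphorylates BAD (7.64-fold), Ywhaz, a 14-3-3 protein that binds phosphorylated BAD (2.23-fold), Bag6 (2.18-fold), the deubiquitinase Usp9x, which stabilises MCL1 (1.93-fold), and Atf4 (1.89-fold), while E2f1 was higher in MC38 (1.68-fold). Pim1, of the same kinase family as Pim3, was the only regulator called in the knockdown effect, with a common log2 of -0.70 ± 0.14 SE (edgeR adjusted p = 0.000323). It gave 789 fragments in the CT26 control, 327 in the CT26 knockdown, 577 in the MC38 control and 482 in the MC38 knockdown. Its log2 fold was -1.15 in CT26 and -0.23 in MC38, a difference that was not tested, and DESeq2, limma-voom and the fit without the line did not call it. No tested gene of the 4 lists passed the fold thresholds in the same direction in both lines. Endog and Trp73 were under the count filter, with at most 14 fragments in a library, and are given no fold.

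By likeness of pattern over the 4 libraries, the genes nearest to Bbc3 among those with a mean of at least 50 counts were Med10, Fosl2 and Tinagl1, at Euclidean distances of 0.132, 0.156 and 0.159 in centred log2 CPM. Fosl2, for instance, gave 10721 and 8149 fragments in CT26 and 2218 and 2246 in MC38. With 4 libraries such a likeness is a description. Of the genes named outside the family's 10, Bcl2l2, Bcl2a1b, Bcl2a1d, Bnip3, Bcl2l12, Bcl2l13, Bcl2l15, Casp9, Htra2, Vdac2, Fas, Casp8, Ripk1, Pim1, Endog, Trp73 and Med10 have a file locus that holds other genes, and their counts could hold fragments of a neighbour.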

How the data were processed

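RNA was sequenced from 4 libraries, CT26 and MC38 cells infected with lenti-shGFP or lenti-shmaurka-1. Per gene and library, the authors deposited an FPKM value and an estimated count. The submitters' processing notes name Trimmomatic 0.36, HISAT2, Cufflinks 2.2.1 and Cuffdiff, and the build GRCm39. The coordinates of the files are GRCm38: 99.8% of 20022 genes overlapped the RefSeq GRCm38.p6 gene of the same name, against 9.64% of 23045 in GRCm39. The deposited estimated counts were scaled between libraries by the authors. Divided by a step of 0.885 to 1.17 per library, 96.3% to 97.5% of nonzero values were whole within 0.05. These recovered fragments give the depth, the counting intervals and the floor of 3 fragments, and were an alternative in the tests. PCR copies were not marked, so intervals cover counting error only.

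Members were taken by symbol. Members, lists, thresholds and alternatives were chosen with earlier results of these data known, so the lists are descriptions. All members are named, with the list genes called in the knockdown effect, up to 8 of smallest adjusted p per list in the line effect, any past the fold thresholds in both lines in 1 direction, and the 3 genes nearest to the member of widest line effect. Other genes given with values (Bcl2l2, Trp53, the Bcl2a1 genes, Bik, Hrk, Endog, Trp73 and Rpl13) were added after their values were seen.

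Folds are ratios of TMM-scaled counts with 1 count added. Genes with a mean of at least 10 counts were kept. Counts were rounded for edgeR 4.0.16 in R 4.3.3, with line and knockdown in an additive quasi-likelihood model, 1 residual degree of freedom and Benjamini-Hochberg adjustment over 14013 genes at 0.05. Scripts were tested on simulated data. Alternatives were other scalings, filters, added counts, FPKM, recovered fragments, no block, DESeq2 1.42.0 and limma 3.58.1. Promoters are RefSeq's. Some genes of the lists are not reported here by name.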

Additional observations from a re-analysis of the deposited data

Results flagged for a closer look

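For 5 members the knockdown values lay on opposite sides of the control in the 2 lines, and the difference between lines was not tested, since each rests on 4 single libraries. The log2 fold in MC38 minus that in CT26 was 0.50 for Bid (95% counting interval 0.36 to 0.65), from -0.29 in CT26 and 0.22 in MC38. It was 0.44 for Bax (0.32 to 0.56), from -0.16 and 0.28. It was 0.49 for Bbc3 (0.25 to 0.73), but the MC38 value was 0.01 and changed sign with total-count scaling, DESeq2 size factors and FPKM. For Bcl2 it was 0.26 (-0.03 to 0.54) and for Bak1 0.091 (-0.01 to 0.19), and both intervals held no difference. In FPKM, Bak1 was above the control in both lines (log2 0.07 in CT26 and 0.02 in MC38). These intervals cover counting error only.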

How the results depend on the processing

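Over the alternatives, 381 of 414 values for single members kept their call or moved by less than their interval, 30 moved further and 3 lost a call. The sign turned in 10 values, none of them called: Bak1 in CT26 with FPKM (0.07), Bad in CT26 and Bak1 in MC38 with total-count scaling (-0.01 each), Bbc3 in MC38 under 4 settings (-0.059 to -0.0031), Bid among the shmaurka-1 libraries with total-count scaling (0.03) and the common knockdown effect of Bax without the block (-0.03). The lost calls were those of Bcl2 and Bid with total-count scaling (log2 -0.19 and -0.22) and of Bcl2 with DESeq2, all in the line effect, where 7 of 9 members were called with total-count scaling and 8 with DESeq2, beside 76.7% and 60.5% of all genes. Total-count scaling put 1 member over 2-fold higher in MC38 among the shGFP and 2 among the shmaurka-1 libraries, beside 31.2% and 31.8% of all genes. With counts over a common length, the share of Mcl1 in the anti-apoptotic sum in MC38 was 65.8% and 65.3% and that of Bcl2l1 31.9% and 32.0%.

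The counts over all genes moved more. In CT26, genes above 1.5 went from 727 to 451 with 5 counts added, 231 with FPKM and pseudocount 1, 374 at a mean of 50 counts and 2579 with no filter. Genes below 0.6 went from 726 to 385, 467 (FPKM, pseudocount 0.1), 98, 310 and 2991. In MC38, genes above 1.5 went from 569 to 176 (FPKM, pseudocount 1), 198 and 3085, and genes below 0.6 from 341 to 176 (5 counts added), 37, 118 and 2835, or 523 with a threshold of 1/1.5. With no filter the line counts above 2 and below 0.5 were 5635 and 4406 for shGFP and 5907 and 4083 for shmaurka-1. The cause was not tested beyond the filters' own construction. The knockdown effect called 334 genes, and 216 at a mean of 50 counts, 49 with DESeq2 and 136 with limma-voom. With total-count scaling 48.4% of its calls were higher, against 58.1%.

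Libraries are paired only by line and treatment. Without that block, edgeR called 0 genes in the knockdown effect (3 at an unadjusted p under 0.05). In the line effect it called 10130, or 72.3% of all genes, with 9 members. Leaving out a library leaves a group empty, so it was not run. The fit in each line alone has no residual degrees of freedom and is given as the fold. Genes of few fragments, such as Bcl2l15 and Bmf in 1 of the lines, are limited by depth.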
